A study of Mus musculus with 3 samples.

Results

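Transcript levels of 10 genes that write or erase tyrosine, acetyl and glycine marks on tubulin were measured by RNA sequencing in 3 mouse hearts. The members were chosen by name, as the rows of the count table with the symbols Ttl, Ttll3, Ttll8, Ttll10, Ttll12, Vash1, Vash2, Svbp, Atat1 and Hdac6, and they make up 10 of its 18038 genes. All hearts were taken 9 days after birth from wild-type mice of the inbred strain C57BL/6J, and no agent, allele or second condition is named for any of them. Replicate numbers in the labels give the names heart 1, heart 2 and heart 3. The labels do not say whether the hearts came from separate litters, so the spread behind each p-value is that of these 3 samples and may be technical. Total RNA of whole tissue was sequenced, so fewer cells of a type and less RNA per cell cannot be told apart. With 1 group, the questions asked were how opposing enzymes stand to each other within a heart and how much each gene differed between hearts.

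Microtubules are built from alpha and beta tubulin, and most alpha tubulins are made with a tyrosine as their last residue. In the tyrosination cycle the vasohibins, working with the small protein Svbp, remove that tyrosine from microtubules, and tubulin tyrosine ligase (Ttl) puts it back on free dimers. In heart muscle, detyrosinated microtubules are known to couple to desmin filaments and to stiffen the cell against shortening. Acetylation marks a lysine inside the microtubule lumen and is added by Atat1 and removed by Hdac6 and Sirt2. Glycylation adds glycines to tubulin tails and is best known from the axonemes of cilia and flagella.

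The substrate of these enzymes is shown first, because the last codon of each alpha tubulin gene sets whether its product enters the tyrosination cycle as translated. The last 30 coding bases of 3 alpha tubulin transcripts are given 5′ to 3′ on the gene's strand, from GENCODE M21 on GRCm38, with the last codon before the stop codon in capitals.
Tuba1b, chromosome 15, 98931582 to 98931611, minus strand: gagggggaggaagaaggagaggagTACtaa
Tuba4a, chromosome 1, 75215622 to 75215651, minus strand: tatgaggacgaggatgagggagaaGAGtag
Tuba8, chromosome 6, 121226050 to 121226079, plus strand: gaagaagagaatgagggggaggaaTTTtaa
Tuba1b ends in the tyrosine codon TAC in a tail of glutamate and glycine codons. Tuba4a ends in the glutamate codon GAG and is thus encoded in the form that other alpha tubulins take only after the tyrosine is removed. Tuba8 ends in the phenylalanine codon TTT. Of the 8 alpha tubulin genes, 5 end in a tyrosine codon (Tuba1a, Tuba1b, Tuba1c, Tuba3a and Tuba3b) and 3 do not (Tuba4a, Tuba8 and Tubal3).

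The acetylation site is codon 40, shown in capitals with 12 bases before it and 15 after it, in the same orientation and build.
Tuba1b, chromosome 15, 98933064 to 98933093, minus strand: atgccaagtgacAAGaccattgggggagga
Tuba4a, chromosome 1, 75217303 to 75217332, minus strand: atgcccagcgatAAGaccattggtggaggg
Tuba8, chromosome 6, 121220486 to 121220515, plus strand: tttggcactcagGCCagcaagatcaacgat
Tuba1b and Tuba4a carry the lysine codon AAG, although they differ at the tail. Tuba8 has the alanine codon GCC at this position. A lysine codon stands at position 40 in 6 of the 8 genes, the exceptions being Tuba8 and Tubal3.

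The table held 17766501, 18643408 and 18768094 counts for hearts 1, 2 and 3. Detection was set at 1 CPM (counts per 1000000 counts of the library) or more in each heart, and 12958 genes reached it. Heart muscle genes were at high levels in every heart, with all 8 cardiomyocyte markers detected at a summed 66794 to 71072 TPM (abundance per gene length, scaled so that each heart sums to 1000000). Heart 1 stood apart in its airway transcripts. Of 16 airway and motile cilium markers in the table, 14 were highest in heart 1, and their summed level was 1725 TPM there against 99.1 and 112 TPM in hearts 2 and 3. Most of it came from Scgb1a1, a secretoglobin of airway epithelium, with 1202, 0.280 and 3.48 TPM, and Scgb3a2, another one, with 411, 0.240 and 2.73 TPM. Without both secretoglobins and Tppp3, a gene that was at 93.0 to 98.9 TPM in each heart, the other 13 markers summed to 15.3, 5.64 and 6.53 TPM. Sftpb and Dnah9 were at 0 in hearts 2 and 3, and Sftpa1 and Dnah5 in heart 2.

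Of the 10 members, 8 were detected, which is to be read beside 71.8% of all genes in the table. The enzymes of tyrosination and acetylation were all among the 8, and of the 3 glycylase genes Ttll3 was detected while Ttll8 and Ttll10 were not. By mean level the order was Svbp, Vash1, Atat1, Hdac6, Ttl, Vash2, Ttll12, Ttll3, Ttll10 and Ttll8. Their summed level was 175 to 177 TPM in every heart. The median of the members' mean levels was 12.1 TPM, against 9.41 TPM over all 18038 genes.

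**Figure D1:**
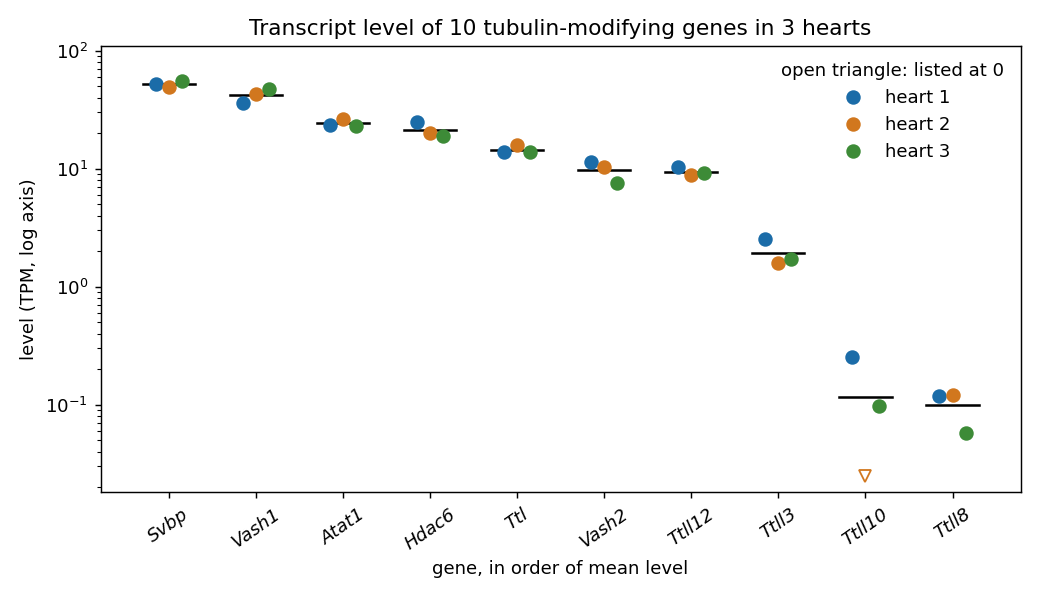
Level of each member in TPM (log axis) in hearts 1, 2 and 3, with genes in order of mean level. Points are hearts, lines are means over 3 hearts, and the open triangle marks the heart in which Ttll10 was listed at 0. The first 7 genes lie between 7.54 and 55.1 TPM, and the 3 glycylases lie below 3.

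Ttl, the ligase that restores the terminal tyrosine (gene ID 69737, chromosome 2, 129065947 to 129097569, plus strand, GRCm38), was at 13.7, 15.9 and 13.8 TPM, a mean of 14.5 ± 1.22 (SD, n = 3). Heart 2 was the highest and the other hearts were nearly equal. These levels rest on 559, 664 and 602 counts.

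Vash1, a vasohibin that cuts the tyrosine off and was first described as an endothelial inhibitor of vessel growth (chromosome 12, 86678700 to 86695688, plus strand), was at 35.8, 43.4 and 47.8 TPM, a mean of 42.4 ± 6.07 (SD, n = 3). Heart 1 was the lowest, and the lowest Vash1 value was above the highest Ttl value. Within a heart, the log2 ratio of Vash1 to Ttl was 1.38, 1.45 and 1.79, a mean of 1.54 ± 0.22 (SD, n = 3), or 2.91-fold. The fitted ratio was 1.93 without a length correction and 2.75 with the longest transcript lengths. Vash1 was thus higher in 3 of 3 hearts (edgeR quasi-likelihood test, adjusted p = 2.15e-10, the larger of the fits with either gene as reference). Over the alternative settings the largest adjusted p of this ratio was 0.000255. The fitted Vash1 to Ttl ratio was 1.63 without heart 1.

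Such a call has little weight by itself, because most genes of a library differ in level. Against Ttl, 46.0% of all tested genes were called higher and 46.3% lower, and of the 8 members tested 4 were higher and 4 lower. The members' shares were therefore near those of all genes. The order in each heart adds little, since 34 of 36 tested pairs of members kept the same order in every heart. What is left is the size of a ratio, which depends on the gene lengths assumed.

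Vash2, the second vasohibin (chromosome 1, 190947646 to 190979310, minus strand), was at 11.4, 10.4 and 7.54 TPM, a mean of 9.78 ± 2.01 (SD, n = 3). Unlike Vash1 it was highest in heart 1 and lowest in heart 3, and in each heart it was below Ttl. The log2 ratio of Vash2 to Ttl was -0.27, -0.62 and -0.87, a mean of -0.59 ± 0.31 (SD, n = 3). The call of this difference (edgeR adjusted p = 0.0083) was lost without heart 2, where the ratio was -0.57 with an edgeR adjusted p of 0.248 (range over the alternatives 0.000391 to 0.248).

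The vasohibins therefore stood on opposite sides of Ttl in every heart. Vash1 exceeded Vash2 by a log2 ratio of 1.65, 2.07 and 2.67 in hearts 1, 2 and 3, a mean of 2.13 ± 0.51 (SD, n = 3) or 4.37-fold (edgeR adjusted p = 3.75e-19). The fitted ratio was 2.71 without a length correction and 3.35 with the longest transcript lengths. Over the hearts the ratio was smallest in heart 1 and largest in heart 3, where Vash1 was at its highest and Vash2 at its lowest. Vash1 accounted for 75.8%, 80.7% and 86.4% of the summed vasohibin level, shares that rest on the same lengths. The summed level was 47.3, 53.8 and 55.4 TPM (52.1 ± 4.29, SD, n = 3), lowest in heart 1.

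Svbp, the small vasohibin-binding protein without which the vasohibins are poorly stable and active (chromosome 4, 119195310 to 119201298, plus strand), was at 52.4, 49.5 and 55.1 TPM, a mean of 52.3 ± 2.83 (SD, n = 3). It was the highest member in each heart, and its coefficient of variation over the hearts was 5.41%, with a lower one in 25.4% of all detected genes. Against the sum of both vasohibins, a comparison chosen after the values were seen, Svbp was within 0.15 on the log2 scale in every heart, with log2 ratios of the sum to Svbp of -0.15, 0.12 and 0.01. This near equality holds only at the lengths implied by the deposited values: the mean was 1.37 with the longest transcript lengths and 3.08 in CPM. Svbp to Vash1 alone gave log2 ratios of 0.55, 0.19 and 0.21, which were not called (edgeR adjusted p = 0.117 with Vash1 as reference and 0.0080 with Svbp as reference).

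Svbp exceeded Ttl by 1.93, 1.64 and 2.00 on the log2 scale, a mean of 1.85 ± 0.19 (SD, n = 3, edgeR adjusted p = 2.56e-10). This order depends on transcript length, because Svbp is a short gene of 647 bases by the length implied by the deposited values and Ttl one of 4481 bases. Per gene, Svbp had 305, 298 and 349 counts, fewer than Ttl in every heart, and the log2 ratio without a length correction was -0.94.

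Vash1 rests on an assumed length as well. The deposited values imply 5877 bases for it, while its longest GENCODE transcript has 2599 bases. With the latter Vash1 was at 129 TPM. Its span ends at 86695688 in the count table and at 86692091 in GENCODE M21, on the plus strand. The 2599 bases may thus leave out part of the span in which reads were counted, which would make 129 TPM too high. Under the length of 2599 bases Vash1 exceeded Svbp, with a log2 ratio of Svbp to Vash1 of -1.23. The order of Vash1 over Ttl and over Vash2 held with either length, and the order of Vash1 and Svbp did not.

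The balance of the tyrosination cycle was also taken over summed transcripts. The log2 ratio of Vash1 and Vash2 together to Ttl was 1.78, 1.76 and 2.00, a mean of 1.85 ± 0.13 (SD, n = 3), or 3.60-fold. Matcap1, a more recently described tubulin tyrosine carboxypeptidase matched here by gene ID, was at 7.62, 7.06 and 5.74 TPM, below Ttl in each heart. Adding it to the vasohibins moved the ratio to 2.03 ± 0.11 (SD, n = 3). No p is given for sums over members, which were chosen by name.

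**Figure D2:**
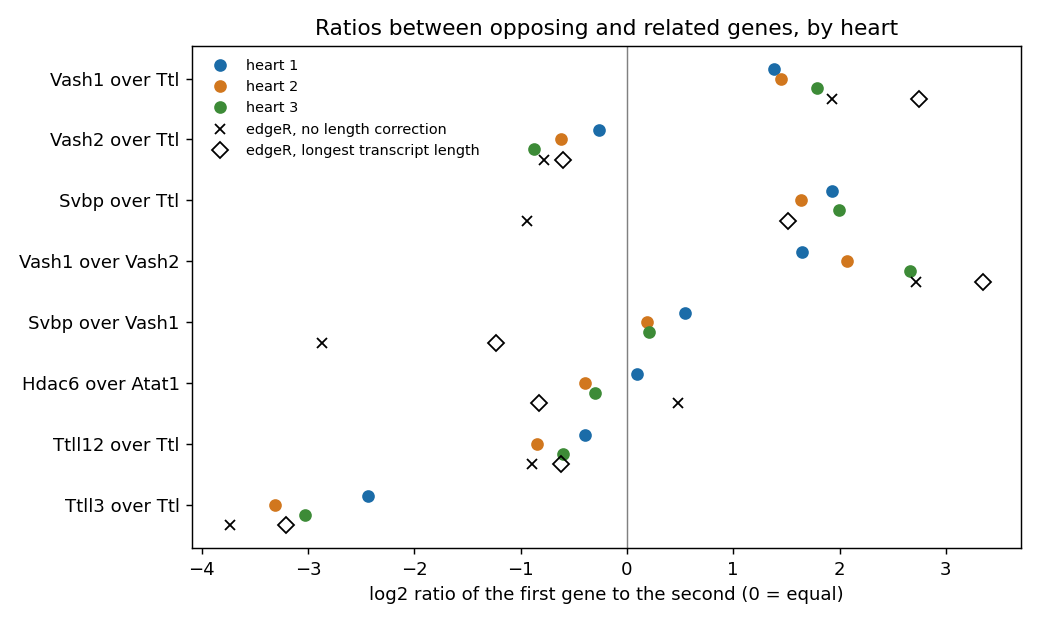
Log2 ratio of the first gene to the second in each heart, for 8 opposing or related pairs, on the TPM scale. Filled points are hearts, crosses the edgeR estimate over 3 hearts with no length correction, and diamonds the estimate with the longest transcript length. Vash1 over Ttl stays right of 0 in all cases, Svbp over Ttl turns to -0.94 without a length correction, and Hdac6 over Atat1 lies on both sides of 0.

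Ttll12, a member of the ligase-like family with no established tubulin ligase activity (chromosome 15, 83575094 to 83595157, minus strand), was at 10.4, 8.84 and 9.14 TPM, a mean of 9.48 ± 0.849 (SD, n = 3). It was below Ttl in 3 of 3 hearts, with log2 ratios of -0.40, -0.85 and -0.60 (edgeR adjusted p = 9.17e-05). Its neighbour in the order of levels, Vash2, was higher in 2 hearts and lower in 1, and the mean log2 ratio of Vash2 to Ttll12 of 0.03 had a 95% interval from -0.39 to 0.45 (edgeR adjusted p = 0.899).

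Over all 45 pairs of members, 36 could be tested and 33 were called different, to be read beside 91.2% of all ratios of a gene to a member called in single fits. The 3 pairs not called were Svbp and Vash1, Atat1 and Hdac6, and Vash2 and Ttll12, each of them neighbours in the order. All other neighbours among the first 8 genes were called: Vash1 over Atat1 (0.79 on the log2 scale), Hdac6 over Ttl (0.55), Ttl over Vash2 (0.59) and Ttll12 over Ttll3 (2.31), each with the higher gene higher in 3 of 3 hearts. Of the 36 tested pairs, 34 kept the same order in every heart.

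Atat1, the acetyltransferase of alpha tubulin (gene ID 73242, chromosome 17, 35897595 to 35910082, minus strand), was at 23.5, 26.5 and 23.2 TPM, a mean of 24.4 ± 1.82 (SD, n = 3). Hdac6, the cytoplasmic deacetylase that acts on tubulin and other proteins (gene ID 15185, chromosome X, 7930116 to 7948016, minus strand), was at 25.1, 20.1 and 18.8 TPM, a mean of 21.3 ± 3.28 (SD, n = 3). Hdac6 was highest in heart 1, the only heart in which it was above Atat1, and the ranges of the 2 genes overlapped.

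The log2 ratio of Hdac6 to Atat1 was 0.09, -0.40 and -0.30, a mean of -0.20 ± 0.26 (SD, n = 3). The difference was not called, with a 95% interval from -0.50 to 0.09 (edgeR adjusted p = 0.182). For reference, 93.1% of all tested genes were called different from Atat1. Without heart 1 the ratio was -0.33 and was called (edgeR adjusted p = 0.000872), and the adjusted p ranged from 9.84e-05 to 0.629 over all alternatives. The direction depends on length: the ratio was 0.48 with no length correction (edgeR adjusted p = 0.00182) and -0.83 with the longest transcript lengths (edgeR adjusted p = 9.84e-05).

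Sirt2, a NAD-dependent deacetylase that also removes acetyl groups from tubulin, was at 129, 118 and 113 TPM (120 ± 7.93, SD, n = 3). Its lowest heart was far above the highest values of Hdac6 and Atat1. Together, Hdac6 and Sirt2 exceeded Atat1 by 2.71, 2.38 and 2.51 on the log2 scale, a mean of 2.53 ± 0.17 (SD, n = 3), or 5.77-fold. Most of the deacetylase transcript by level was thus Sirt2. The sum exceeded Atat1 in every heart, whereas Hdac6 alone was not called different from Atat1 in the main setting.

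The counts of Atat1 were not whole numbers in any heart (539, 574 and 564 after rounding), so part of its reads was divided among features. No single gene of the 1735 with fractional counts completed them to whole numbers within 0.015 counts. In GENCODE M21, 644 exonic bases of Atat1, 14.0% of its exonic length, lie opposite the antisense gene Gm16279, and without a stated strand setting reads of these genes cannot be told apart.

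Ttll3, which attaches the first glycine to tubulin tails (gene ID 101100, chromosome 6, 113378113 to 113416404, plus strand), was at 2.54, 1.60 and 1.70 TPM, a mean of 1.95 ± 0.517 (SD, n = 3). It was below Ttl in every heart, by a mean log2 ratio of -2.92 ± 0.45 (SD, n = 3, edgeR adjusted p = 4.56e-08). Heart 1 was the highest, and it is also the heart in which 14 of 16 airway and motile cilium markers were highest. Without heart 1 the mean level of Ttll3 was 1.65 TPM. The part of airway or ciliated cells in this difference was not tested, and Ttll3 did not pass the test of variation between hearts described below.

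The level of Ttll3 is uncertain for another reason. In the table it starts at the same base as Arpc4, a subunit of the actin-nucleating Arp2/3 complex, which spans 113378113 to 113390447. Its fractional counts of 57.51, 39.25 and 40.52 and those of Arpc4 (1241.49, 1208.75 and 1291.48) add to 1299, 1248 and 1332 in hearts 1, 2 and 3, whole numbers within 0.015 counts, and no other gene did this with Ttll3 in all hearts. Arpc4 was at 60.9 TPM, and Ttll3 held 4.43%, 3.15% and 3.04% of the shared sum. A small shift in how reads were divided would change Ttll3 by a large factor, and the table gives no means to undo it. Arpc4 was looked for after the fractional counts were seen.

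Ttll8, the other glycylase that starts chains (gene ID 239591, chromosome 15, 88889778 to 88955642), was at 0.117, 0.120 and 0.0580 TPM, from 4, 4 and 2 counts. Ttll10, which lengthens glycine chains (gene ID 330010, chromosome 4, 156034837 to 156084330, minus strand), had 5, 0 and 2 counts, or 0.254, 0 and 0.0967 TPM. The count of 0 in heart 2 allows up to 0.149 TPM, which is 3 counts for a gene of this length and covers counting error only. At this depth the order of Ttll8 and Ttll10 cannot be read.

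Ttll8 was below Ttll3 in 3 of 3 hearts, by -4.44, -3.74 and -4.87 on the log2 scale, with 10 counts in all, the fewest with which a gene was tested. Of the summed glycylase level of 2.16 ± 0.653 TPM (SD, n = 3), Ttll3 made up 87.2%, 93.0% and 91.7%. This share inherits the uncertainty of the reads shared with Arpc4. The table places Ttll8 on the plus strand and GENCODE M21 on the minus strand, and the same holds for Tuba4a and Tuba3a.

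The substrate of the cycle was far more abundant than its enzymes. Alpha tubulin genes summed to 1826, 1985 and 2003 TPM. Genes ending in a tyrosine codon made up 82.2%, 78.6% and 76.0% of this sum, a mean of 78.9 ± 3.11% (SD, n = 3). Within it, Tuba1b made up 53.9%, 48.6% and 45.5% and Tuba1a 24.1%, 25.2% and 26.9%. Tuba4a, whose product needs no carboxypeptidase to lack the tyrosine, made up 15.3%, 16.8% and 17.8%. Counts of Tuba1a, Tuba1b, Tuba1c and Tuba4a were in part fractional, so part of their reads was divided among features and the split is uncertain. In the table the span of Tuba1a also runs over the Tuba1b locus, and which features shared these reads was not tested.

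**Figure D3:**
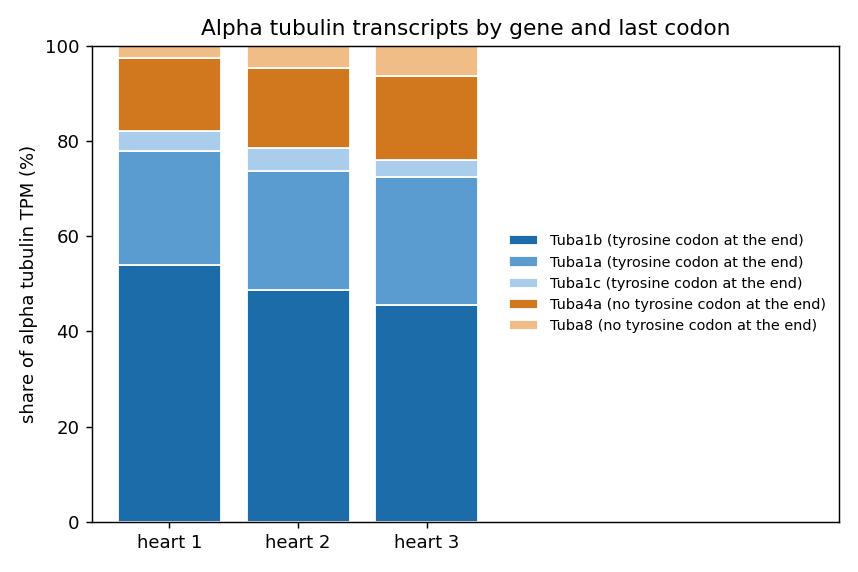
Share of summed alpha tubulin TPM in each heart by gene, in percent. Blue segments are genes whose last codon encodes tyrosine and orange segments are genes whose last codon does not, with Tuba3a, Tuba3b and Tubal3 too low to be seen. The blue share is 82.2%, 78.6% and 76.0% in hearts 1, 2 and 3, and the Tuba8 segment is smallest in heart 1.

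Tuba8 was the alpha tubulin that differed between hearts. It had 573, 1170 and 1680 counts, or 45.8, 90.8 and 125 TPM, lowest in heart 1 and highest in heart 3. It passed the test of variation between hearts (edgeR goodness of fit, adjusted p = 3.45e-06), in which none of the other 5 alpha tubulins tested did, and the call was lost without heart 1 (edgeR adjusted p = 0.103). The tyrosine-ending share was 77.3% without heart 1, and 82.6% over 3 hearts with Tuba8 left out. Genes with a lysine codon at position 40 made up 97.5%, 95.4% and 93.8% of the alpha tubulin level, the remainder being Tuba8. Summed smooth muscle and pericyte markers were also lowest in heart 1, with 756, 1331 and 1601 TPM over 7 genes of which none was at 0 in any heart. All 7 were lowest in heart 1, but most of the rise came from Acta2 and Rgs5, and the other 5 summed to 187, 216 and 251 TPM. The only one of the 7 called, Acta2, smooth muscle actin, was at 303, 670 and 918 TPM and passed the test of variation (edgeR adjusted p = 8.00e-09), again not without heart 1 (0.123). Summed fibroblast markers had the same order as Tuba8, with 3585, 3796 and 3823 TPM, and summed endothelial markers were lowest in heart 1 as well. The part of these cell types in the difference of Tuba8 was not tested.

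Variation between hearts was tested for 9 members, Ttll10 having too few counts. None was called at an adjusted p below 0.05 with edgeR, where 1.80% of all 15187 genes tested were called. None had an unadjusted p below 0.05 either, against 5.87% of all genes, and none was called in the 6 alternative settings. The smallest unadjusted p was 0.0867 (edgeR), for Vash1. With 3 hearts this does not show that the members were equal between hearts.

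The spread is described here with no test of a difference between members. Among the 8 detected members Ttll3, which has few counts, had the highest coefficient of variation over the hearts, 26.5%, followed by Vash2 with 20.6%, Hdac6 with 15.4% and Vash1 with 14.3%. Ttll12, Ttl, Atat1 and Svbp had 8.96%, 8.45%, 7.44% and 5.41%. Over all detected genes, whatever their level, the median was 8.83%, and genes of low level tend to spread more. Ttll8 and Ttll10, with 10 and 7 counts, had 35.6% and 110%. Among the genes with the larger spread, Vash1 was lowest in heart 1, whereas Vash2, Hdac6 and Ttll3 were highest there.

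**Figure D4:**
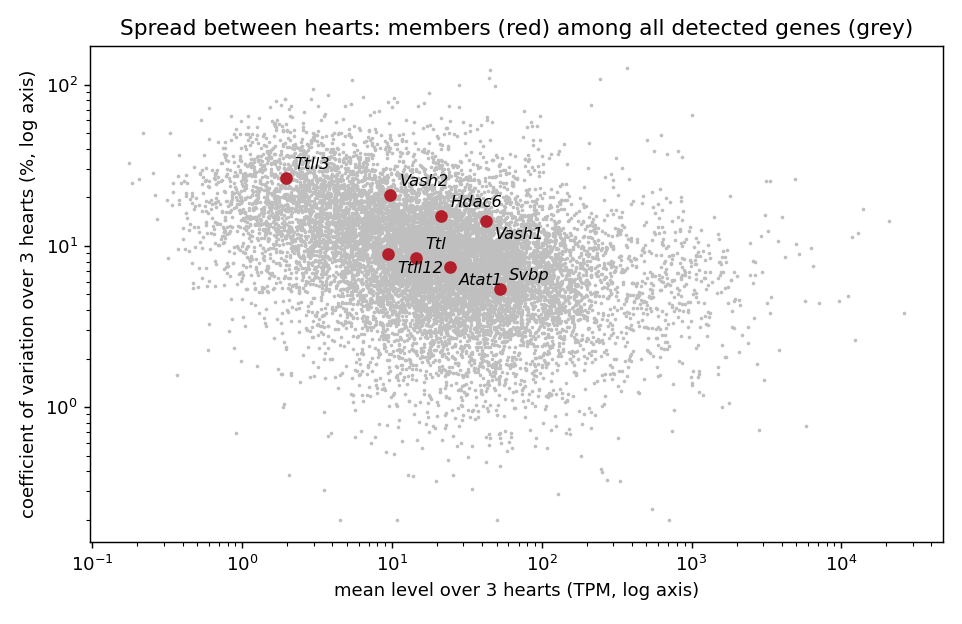
Coefficient of variation over 3 hearts in percent against mean level in TPM (both axes logarithmic), for all 12958 detected genes in grey and the 8 detected members in red. Svbp, Atat1, Ttl and Ttll12 lie between 5.41% and 8.96%, and Vash1, Hdac6, Vash2 and Ttll3 between 14.3% and 26.5%.

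Vash1 is known from endothelium, and the summed level of 10 endothelial markers was 1179, 1307 and 1274 TPM in hearts 1, 2 and 3, all 10 detected and led by Cdh5, Eng and Pecam1. Of the 10, 7 were lowest in heart 1, as Vash1 was, and 2 were highest there: Vwf with 38.1, 28.2 and 20.9 TPM and Emcn with 103, 101 and 96.3 TPM. Vwf had the smallest unadjusted p of the list in the test of variation, 0.00221, and was not called (edgeR adjusted p = 0.0981). The highest of the 3 sums was 1.11 times the lowest. The summed smooth muscle and pericyte markers given above had the same order over the hearts as Vash1. Summed fibroblast markers had it too, with 3585, 3796 and 3823 TPM, so the order is not particular to 1 cell type. The part of endothelial, smooth muscle or fibroblast cells in the spread of Vash1 was not tested.

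Genes of the same pathway gave the members a frame. Of 9 other ligase-like genes, which mostly add glutamate, 5 were detected, to be read beside 71.8% of all genes. The median of the mean levels of all 9 was 1.47 TPM. Ttll1, the catalytic subunit of the polyglutamylase complex, led them with 51.8 ± 3.64 TPM (SD, n = 3), followed by Ttll5 with 10.3 ± 1.60 and Ttll4 with 9.21 ± 0.498. Over all tested genes, 46.0% were called above Ttl and 46.3% below. Of the 7 ligase-like genes tested, 1 was higher and 6 were lower, with a median log2 ratio of -3.23. The 8 members tested had a median of -0.02. Of 9 other tubulin modifiers, 6 were above Ttl and 3 below, led by the transglutaminase Tgm2 at 152 ± 14.4 TPM, ahead of Sirt2 and Hdac5 (56.5 ± 9.90 TPM).

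A list of 16 CAP-Gly and motor genes holds some whose products bind microtubules according to the terminal tyrosine, and others listed by domain or family only. All 16 were detected, to be read beside 71.8% of all genes. The highest were Clip4 at 89.2 ± 8.42 TPM, Dctn1, the large dynactin subunit, at 85.7 ± 5.44 TPM, and Kif5b, a kinesin heavy chain, at 61.5 ± 11.2 TPM (SD, n = 3). Against Ttl, 8 were higher, 7 lower and 1 not called, to be read beside 46.0% of all tested genes higher and 46.3% lower. None of the 16 passed the test of variation between hearts (edgeR), where 1.80% of all tested genes did. An unadjusted p below 0.05 was found for 3 of the 16, to be read beside 5.87% of all tested genes.

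Partners and regulators of the enzymes were above Ttl, though not above every member. Some were called below Atat1 and some below Vash1, with median log2 ratios of 2.78 to Atat1 and 2.00 to Vash1. All 11 were called above Ttl, where 46.0% of all tested genes were, with a median log2 ratio of 3.54. They were led by the chaperone Hsp90ab1 at 1145 ± 35.7 TPM, the intermediate filament gene Des, whose product binds detyrosinated microtubules in heart muscle, at 833 ± 65.1 TPM, and Vcp at 394 ± 12.1 TPM (SD, n = 3). None of these 11 had an unadjusted p below 0.05 in the test of variation between hearts (edgeR), against 5.87% of all tested genes.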

How the data were processed

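DNBSEQ libraries of Trizol-extracted total RNA from 3 hearts were sequenced, per the labels' protocols. The submitters' processing notes name HISAT and GRCm38.p6. Which counter was used, and with which strand setting, is not given in the sources used here. The deposited values are expected counts, fractional for some genes, and FPKM by the authors, per the file headers. A line without values (1) was dropped. TPM is the deposited FPKM rescaled to 1000000, and gene length the one implied by count and FPKM.

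Counts were rounded, and genes with at least 10 counts in all (15187) were tested with edgeR 4.0.16 (R 4.3.3). Each gene was fitted against each of 8 detected members in 6 columns, with heart as a block, TMM-scaled library size times length as offset, quasi-likelihood tests and Benjamini-Hochberg adjustment over 121488 ratios. All rows of such a fit share the reference's 3 columns, so p depends on which gene is the reference and errors in the reference move all rows together. The larger of both p-values is therefore given, a rule made after seeing this, and p-values are to be read with that limit. Variation between hearts was tested by edgeR goodness of fit with trended dispersion. Functions were tested on simulated data. For fits with a shared reference only the log2 ratio was checked there, and the share of false calls was not measured. The interval on a ratio is at 95%.

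The last codon and codon 40 were read from GENCODE M21 coding sequences, since no protein table was used here, a change from the planned design. The members and lists (15, with 140 entries, 2 of them not matched) were chosen with earlier results of these data known. The text names every member, the alpha tubulins, the 3 highest genes of several lists, Sirt2, Scgb1a1 and some list genes that varied between hearts, besides Arpc4, Gm16279, Matcap1, Tppp3, Rgs5, Vwf and Emcn, which were named after their values were seen. Alternatives were other lengths, scalings, filters, tools (DESeq2 1.42.0, limma 3.58.1), no block, and leaving out each heart.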

Additional observations from a re-analysis of the deposited data

How the results depend on the processing

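The log2 ratios to Ttl or Atat1 kept their direction and their side of the threshold under most settings. Without a length correction Svbp over Ttl turned to -0.94, Hdac6 over Atat1 to 0.48 and Svbp over Vash1 to -2.87. The mean log2 ratio of Hdac6 to Atat1 in CPM, from the same counts, was also 0.48. With the longest transcript lengths Svbp over Vash1 turned to -1.23 and Hdac6 over Atat1 (-0.83) passed the threshold. The sum of Vash1 and Vash2 over Svbp, near 0, turned to 3.08 in CPM, 1.37 with longest lengths and, without 1 heart at a time, -0.071 to 0.064. Vash1 and Vash2 over Ttl was 2.14 in CPM and 2.88 with longest lengths, and Hdac6 and Sirt2 over Atat1 was 2.29 and 1.97. The tyrosine-ending share was 75.3% in CPM and 82.6% without Tuba8. These settings differ by construction in the lengths or genes used, and for Vash1 the longest transcript length may be too short, as given above.

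Leaving out 1 heart at a time gave Vash1 over Ttl 1.41 to 1.63, Vash2 over Ttl -0.74 to -0.44 (not called without heart 2, -0.57), Svbp over Ttl 1.78 to 1.96, and Hdac6 over Atat1 -0.33 (called, without heart 1) to -0.14. Genes called variable were 117 to 149 with 2 hearts and 414 with a common dispersion, against 274, and the cause was not tested. Without the replicate block the ratios were 1.55 (Vash1 over Ttl), -0.57 (Vash2 over Ttl), 1.85 (Svbp over Ttl) and -0.20 (Hdac6 over Atat1), with no call changed. With the own spread of each gene (limma), an alternative chosen after seeing the data, Svbp over Vash1 was called (0.31, limma adjusted p = 0.0136). Depth limits Ttll8 and Ttll10, with 10 and 7 counts in all.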
